A study of Mus musculus with 24 samples.

Results

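The miR-467 and miR-669 families are 2 large groups of mouse microRNAs (miRNAs), and their members were followed here as hybridization signals in intact and degraded liver RNA. Members were all array entries whose name begins with miR-467 or miR-669 followed by a letter, which gave 35 of the 1881 miRNAs on the array. Of these, 12 belonged to the miR-467 family and 23 to the miR-669 family. The 5p arm was named in 13 of them and the 3p arm in 16, while 6 carried no arm in the name. All 35 members were matched to RefSeq genes in the GRCm38.p6 assembly. All genes of 32 members lay within the bounds of Sfmbt2, a Polycomb group gene of mouse chromosome 2, whereas the genes of miR-467f, miR-467g and miR-669n lay on other chromosomes.

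A miRNA is cut from a hairpin precursor, and the 2 strands of the hairpin are named the 5p and the 3p arm. The mature strand binds messenger RNAs mainly through its seed, the bases 2 to 8 counted from the 5′ end, and lowers their output. The families that share the Sfmbt2 intron are known as a rodent cluster of many closely related copies, which is paternally expressed in the placenta. A signal on the array shows that labelled nucleic acid bound the probes of a given name, not which molecule it was. Close copies can bind the same probes, so signals of similar members are not independent measurements.

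RNA was taken from liver of 3 mice, which are numbered 7, 10 and 9 in the labels, with 1 array per mouse in each of 8 groups and so 24 arrays in all. The study's methods describe male C57BL6 mice of an Il1a knock-out strain as a source of tissue, and the labels give no strain or age. Total RNA with small RNAs kept was isolated from liver stored for 0 h or for 96 h, which was at room temperature per the methods, either with or without a DNase digestion, giving 4 groups. RNA depleted of small RNAs was isolated from unstored liver with DNase digestion and hybridized untreated, or after an incubation with 0 U, 0.026 U or 0.67 U RNase and a second isolation, giving the other 4 groups. The RNA integrity number (RIN), on which higher means more intact, was 8.8 to 9.0 in fresh RNA with small RNAs, 2.3 to 2.5 after 96 h, 9.0 to 9.4 in untreated and 0 U depleted RNA, 6.0 to 7.0 at 0.026 U and 2.4 to 2.9 at 0.67 U. For mouse 9 the labels of the RNase arrays contradict each other, and these arrays were grouped by their descriptions. Each mouse had its own slide and scan, and effects of mouse, slide and scan cannot be told apart. The array of mouse 10 at 96 h with DNase correlated least with the others of its group, down to a Pearson r of 0.849 across miRNAs.

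The liver marker miR-122-5p was detected on every array, and the 3 hepatocyte markers together gave 2027 to 15146 intensity units per array. None of the 3 neuron markers was detected on any array. Of the 4 muscle markers, miR-133a-3p and miR-206-3p were detected, and on arrays of 96 h RNA only, where the summed signal of the list was 10.1 to 33.5 units. miR-1a-3p and miR-208a-3p were detected nowhere. The summed signal of the 2 leukocyte markers was 41.4 to 162 units in fresh RNA and 10.4 to 34.2 units at 96 h, and that of the 2 red cell markers was 222 to 569 units and 150 to 205 units. The part of other cell types in the results below was not tested. In bulk RNA, fewer cells of a type and less RNA per cell cannot be told apart.

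RefSeq (GRCm38.p6) gave the mature sequence of 3 members, those encoded outside Sfmbt2. They are shown because they hold opposite dinucleotide repeats and, as described further on, differed in signal between the same arrays. The seed is in capitals.
miR-467f: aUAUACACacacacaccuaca
miR-467g: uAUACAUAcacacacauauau
miR-669n: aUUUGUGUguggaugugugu
The mature sequence of miR-467f lies at chr11:69635419-69635439 on the minus strand, that of miR-467g at chr5:34732872-34732892 on the minus strand, and that of miR-669n at chr3:115979905-115979924 on the plus strand. All 3 seeds differ. miR-467f and miR-467g share a stretch of 11 bases, and their longest alternating runs of A and C are 12 and 9 bases long. miR-669n has no such run, but an alternating run of G and U of 8 bases, and 8 consecutive bases of it are complementary to miR-467f. An alternating CA run of 8 bases (ACACACAC or CACACACA, searched on the miRNA strand) was present in 4 of the 1608 array miRNAs that have a RefSeq sequence, 0.249%. An alternating GU run of 8 bases (GUGUGUGU or UGUGUGUG) was present in 9 of them, 0.560%. The motifs were chosen after the sequences were seen.

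The first question was in which RNA the families gave a signal at all. Of the 35 members, 23 were detected on at least 1 array and 12 on none. In fresh DNase-treated RNA each of the 3 arrays detected 3 members, and in fresh RNA without DNase digestion the mean was 3.33 ± 0.577 (SD, n = 3). After 96 h it was 10.7 ± 5.13 (SD, n = 3) with DNase and 14.0 ± 1.0 (SD, n = 3) without. In depleted RNA it was 12.0 ± 2.65 (SD, n = 3) untreated and 2.67 ± 0.577 (SD, n = 3) at 0 U. With RNase it was 4.0 ± 1.0 (SD, n = 3) for the lower dose and 4.67 ± 0.577 (SD, n = 3) for the higher, and these counts were not tested between groups. At 96 h 30.5% of the members were detected on average with DNase and 40% without, against 34.2% and 33.1% of all miRNAs on the same arrays, and so near the background. Untreated depleted RNA had 34.3% of the members detected on average, against 10.8% of all miRNAs on the same arrays.

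The arms differed in where they were detected. The 9 5p members that were detected at all were detected only on 96 h arrays and on none of the other 18 arrays. Of the 3p members 11 were detected somewhere, and 2 of them, miR-669c-3p and miR-669p-3p, on all 6 fresh arrays with small RNAs. Detection in untreated depleted RNA and nowhere else was seen for 6 members, miR-467c-3p, miR-467d-3p, miR-467e-3p, miR-467g, miR-669a-3-3p and miR-669e-3p. miR-467f and miR-669p-3p were detected on all 24 arrays.

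**Figure D1:**
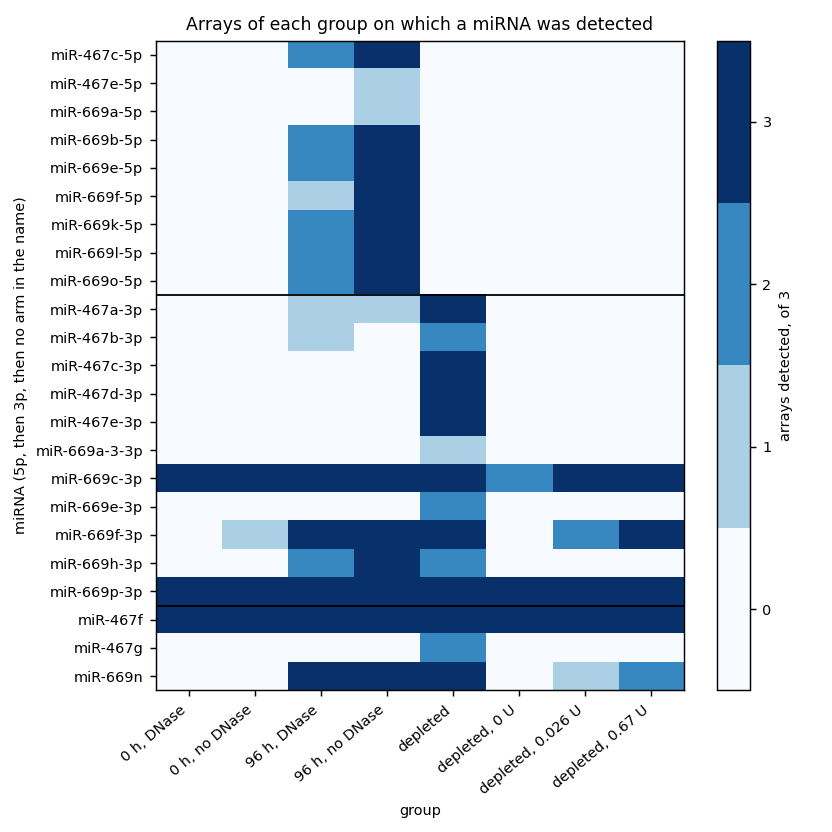
Number of arrays, of 3, on which each of the 23 detected members was detected, by group (columns), with 5p members on top, then 3p members, then members with no arm in the name. The 9 5p members have dark cells at 96 h only, and the column of untreated depleted RNA has filled cells for 3p members that are empty elsewhere.

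The share of the detected signal held by the members was small in every group. In fresh RNA it was 0.0312% ± 0.00716 (SD, n = 3) after DNase digestion and 0.0177% ± 0.00162 (SD, n = 3) without it. It was 0.237% ± 0.102 (SD, n = 3) at 96 h with DNase and 0.540% ± 0.138 (SD, n = 3) at 96 h without DNase. In depleted RNA it was 0.996% ± 0.482 (SD, n = 3) untreated and 0.203% ± 0.0912 (SD, n = 3) at 0 U. It was 0.113% ± 0.0164 (SD, n = 3) for the lower RNase dose and 0.113% ± 0.0124 (SD, n = 3) for the higher. The members' summed signal in untreated depleted RNA was 90.8 ± 47.5 units (SD, n = 3), below the 1142 ± 243 units (SD, n = 3) at 96 h without DNase. The total of all detected miRNAs on those arrays was 8313 to 9631 units in untreated depleted RNA and 187378 to 260481 units at 96 h without DNase.

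For tests, signals were normalized between arrays by variance stabilization, which gives a generalized log2 scale (glog2), and a detection flag on 5 or more of the 24 arrays was required to keep a miRNA. This left 631 miRNAs, 13 of them members: 6 5p members, 5 3p members, miR-467f and miR-669n. A miRNA was called higher or lower when its limma change had an adjusted p under 0.05 and was at least 1 glog2 unit. Each of the 6 kept 5p members was detected on 5 arrays, all at 96 h, and passed the filter through those arrays alone. Without the 96 h arrays 5 members would have passed, miR-467f, miR-669n, miR-669c-3p, miR-669f-3p and miR-669p-3p. The other 8 needed 96 h arrays to pass, and miR-467a-3p also those of untreated depleted RNA. High values in these groups were thus built into the choice. In the comparisons that use them, counts and medians over the kept members, and the p-values of these 8 members, are descriptions that support nothing. The other 22 members did not pass this filter, and any test of them is given with the filter it used. Signals below are scanned intensities before normalization, given for mice 7, 10 and 9 in that order.

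Storage for 96 h was compared with fresh RNA first, to ask which members gained signal as the RNA degraded. In DNase-treated RNA 11 of the 13 kept members were called higher and 0 lower, and 60.4% of all kept miRNAs were called higher. Their median change was 2.21 glog2, beside a median of 2.47 for all kept miRNAs. In RNA without DNase digestion 11 of 13 were called higher and 0 lower, again beside 60.5% of all kept miRNAs. There the members' median change was 4.25 glog2 and that of all kept miRNAs 2.16. With no filter on detection, where many signals lie near background, 12 of the 35 members were called higher and 11 lower with DNase, beside 34.9% and 29.7% of all 1881 miRNAs. Without DNase it was 13 higher and 5 lower, beside 32.8% and 27.6%. The members called higher thus stood in a background in which most kept miRNAs rose, and across other scalings of the arrays the background median ranged from 0.14 to 4.12 with DNase and from 0.12 to 3.84 without. With the 75th percentile as the scale 7 members were called higher and 1 lower with DNase, and with variance stabilization fitted on the kept miRNAs it was 2 higher and 1 lower with DNase and 7 higher and 2 lower without. With normexp background correction no member was called with DNase and 1, miR-669n, without.

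miR-669n had the highest signal of any member at 96 h without DNase. In fresh RNA its signal was 1.0, 1.25 and 1.42 units with DNase and 1.25, 2.92 and 1.11 units without, detected on no array. At 96 h with DNase it was 101, 44.1 and 112 units, and at 96 h without DNase 599, 403 and 302 units. The stored arrays overlapped neither with the fresh ones nor between the DNase groups. Since it was not detected in fresh RNA, its change is given as a bound, and it was at least 12.0-fold higher with storage in DNase-treated RNA (limma change 3.59, SE 0.39, adjusted p = 5.6e-08) and at least 54.0-fold higher without DNase (change 5.75, SE 0.39, adjusted p = 2.9e-10). Such a bound sets the brighter arrays against, on each array without detection, the higher of the lowest detected signal there and the miRNA's own signal, after normalization. For miR-669n its own signal was the higher on the fresh arrays, so that these bounds equal the fitted change.

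Like miR-669n, each of the 6 kept 5p members had its highest mean signal at 96 h without DNase and its next highest at 96 h with DNase. miR-669l-5p was -0.373, -0.760 and -0.444 units in fresh DNase-treated RNA and -0.327, 0.627 and -0.272 units without DNase, where values below 0 lie under the local background. It was 21.2, 2.45 and 28.2 units at 96 h with DNase and 177, 110 and 97.9 units at 96 h without DNase. In mouse 10 the 96 h value with DNase was not detected. It was at least 2.56-fold higher with storage in DNase-treated RNA (adjusted p = 1.2e-06) and at least 24.1-fold higher without DNase (adjusted p = 2e-08), both by limma. As miR-669l-5p passed the filter through 96 h arrays alone, these p-values are descriptions that support nothing.

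miR-669e-5p was 14.3, 1.93 and 17.8 units at 96 h with DNase and 134, 76.8 and 67.6 units without, against -0.434, -0.695 and -0.280 units in fresh DNase-treated RNA. Its storage change without DNase was the highest of the 13 kept members, at 6.21 glog2 units (SE 0.59, limma adjusted p = 1.3e-08), a rise of at least 17.3-fold. miR-669f-5p, which was not kept, was 36.4, 24.6 and 23.5 units at 96 h without DNase and below 0 on all fresh arrays, and with the filter set to detection on all arrays of a group, which it passed through this group alone, its change was 7.07 (SE 0.85, adjusted p = 2.4e-07). miR-669b-5p was 6.38, 0.586 and 14.9 units at 96 h with DNase, and its rise there was called (change 3.64, SE 0.55, adjusted p = 4.1e-06), although the bound was only 1.19-fold and the call was lost with the 75th percentile, quantile normalization, variance stabilization fitted on the kept miRNAs and normexp. Without DNase digestion miR-669b-5p reached 88.4, 64.5 and 53.4 units. Thus in each of these 5p members the array of mouse 10 at 96 h with DNase was the low one, and no value there was detected. Of the 6, miR-669k-5p was not called with storage in DNase-treated RNA (change 1.85, SE 0.92, adjusted p = 0.065). Each of these 5p members passed its filter through 96 h arrays alone, so the p-values given here are descriptions that support nothing.

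**Figure D2:**
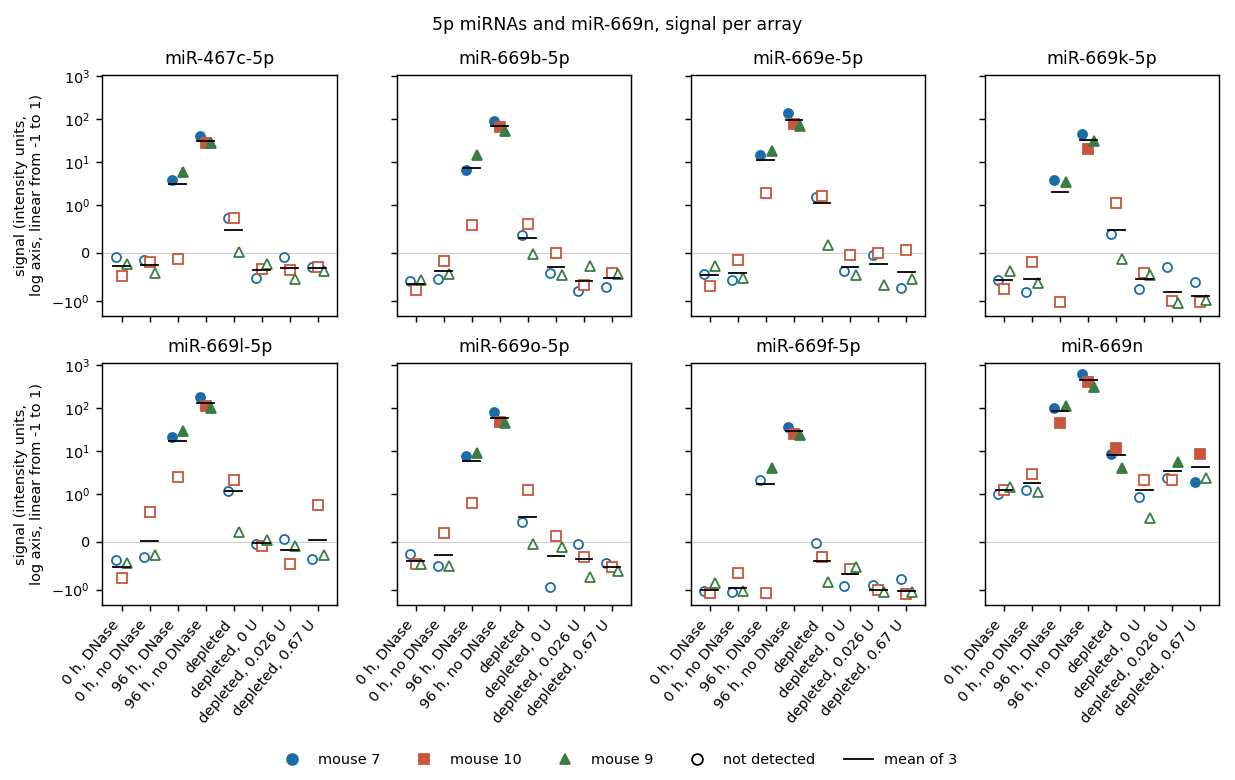
Signal per array (intensity units, log axis that is linear from -1 to 1) of 7 5p members and miR-669n in the 8 groups, with 1 point per mouse, open where not detected, and a bar at the mean of 3. All 5p points are open outside 96 h, and the 3 arrays at 96 h without DNase lie above those with DNase for each of the 8 miRNAs.

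The members detected in fresh RNA were a different set. There were 4, miR-467f, miR-669p-3p, miR-669c-3p and, on 1 array, miR-669f-3p. miR-467f was 10.3, 15.6 and 11.3 units in fresh DNase-treated RNA, 10.4, 12.9 and 12.1 units in fresh RNA without DNase, 264, 93.1 and 371 units at 96 h with DNase and 66.3, 170 and 99.3 units at 96 h without DNase. Every stored array was thus above every fresh array. The limma change of miR-467f with storage in DNase-treated RNA was 2.21 (SE 0.45, adjusted p = 0.00014), a 4.62-fold increase after normalization. The change was no longer called with quantile normalization (0.17), variance stabilization fitted on the kept miRNAs (0.42) or normexp correction (0.13), although it stayed positive. Without DNase it was 1.39 (SE 0.45, adjusted p = 0.0074), and this direction turned to -0.12 with quantile normalization, -0.10 with variance stabilization fitted on the kept miRNAs and -0.01 with normexp background correction.

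miR-669p-3p was 8.82, 11.4 and 9.85 units in fresh DNase-treated RNA, 7.96, 10.9 and 10.1 units without DNase, 203, 65.9 and 268 units at 96 h with DNase and 49.1, 119 and 73.6 units without. Its storage change was 2.04 (SE 0.44, limma adjusted p = 0.00026) with DNase and 1.21 (SE 0.44, adjusted p = 0.015) without. The former was no longer called and the latter turned negative under these 3 settings. miR-669c-3p was lower in level, 2.68, 3.49 and 3.12 units fresh and 82.5, 27.3 and 119 units at 96 h with DNase, with a change of 2.32 (SE 0.47, adjusted p = 0.00013) that was also no longer called under them. At 96 h without DNase miR-669c-3p was 19.9, 51.9 and 33.5 units, and its change of 1.45 (SE 0.47, adjusted p = 0.0075) turned negative under the same settings. miR-669f-3p rose from 1.83, 2.53 and 2.04 units to 35.0, 9.24 and 52.0 units with DNase (adjusted p = 0.0098), which turned to -0.46 with variance stabilization fitted on the kept miRNAs. Its change without DNase was not called (0.73, SE 0.50, adjusted p = 0.18).

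Of these 4 miRNAs miR-467f, miR-669p-3p and miR-669c-3p varied together over the arrays, and miR-669f-3p followed them less closely. Across the 24 arrays, which share normalization and mice, the glog2 values of miR-467f and miR-669p-3p had a Pearson correlation of 0.997, those of miR-467f and miR-669c-3p 0.985, and those of miR-467f and miR-669f-3p 0.811. The signal of miR-467f was 1.15 to 1.51 times that of miR-669p-3p on all 24 arrays, while the signal itself ranged from 5.88 to 371 units. By contrast, it was 2.64 to 16.4 times that of miR-669f-3p. miR-467f lies on chromosome 11 and miR-669p-3p within Sfmbt2 on chromosome 2. How far their probes bind the same molecules was not tested.

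**Figure D3:**
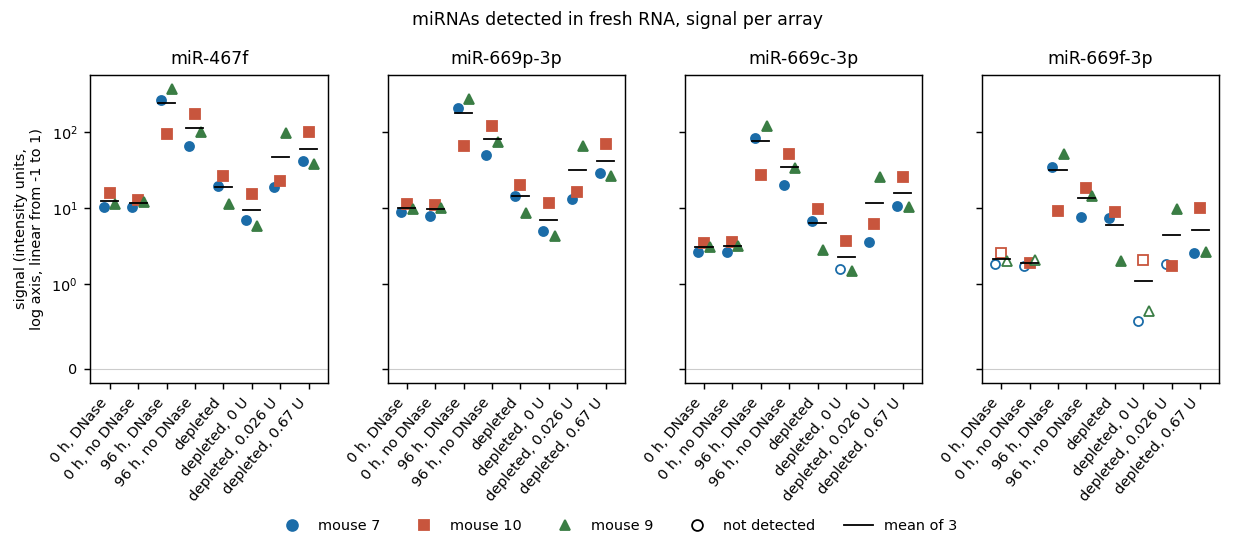
Signal per array (intensity units, log axis that is linear from -1 to 1) of the 4 members detected in fresh RNA in the 8 groups, with 1 point per mouse, open where not detected, and a bar at the mean of 3. In all 4 panels mouse 10 is lowest at 96 h with DNase and highest at 96 h without.

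Next, RNA isolated without DNase digestion was compared with DNase-treated RNA, to ask which signals depend on DNA. In fresh RNA 0 of the 13 kept members were called and 0% of all kept miRNAs, by limma. At an unadjusted p under 0.05 there were 2 of 13 members and 30 of 631 miRNAs. The exact rank test, which cannot pass the threshold with 3 arrays against 3, gave 0 calls there. miR-669l-5p and miR-669b-5p, the 2 members concerned, were detected on none of these 6 arrays.

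At 96 h several members had a higher signal without DNase digestion. Of the 13 kept members 8 were called higher and 0 lower without DNase, beside 6.18% of all kept miRNAs called higher. The 8 were the 6 kept 5p members, miR-669n and 1 of the 5 kept 3p members, miR-669h-3p, and of these only miR-669n would have passed the filter without the 96 h arrays. With no filter on detection 11 of the 35 members were called higher, beside 5.16% of all miRNAs. With normexp background correction 7 of the 8 calls were lost, and that of miR-669n stayed. The median change was 3.34 glog2 over the kept 5p members, -0.83 over the kept 3p members and 0.02 over all kept miRNAs, and the difference between the arms was not tested. After normalization the 8 called members moved the same way in all 3 mice. Of their 15 probes 13 had a higher signal without DNase in every mouse, and the others were those of miR-669h-3p. Before normalization its signal in mouse 9 was lower without DNase, at 18.1 units against 23.9 units with DNase. When the replicate block for the mouse was added, 7 were called, and miR-669h-3p missed the threshold (adjusted p = 0.061, against 0.0498 without the block).

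Among the kept members the changes were largest for miR-669k-5p, miR-669b-5p and miR-669o-5p. miR-669k-5p went from 3.76, -1.09 and 3.43 units with DNase to 45.3, 20.1 and 30.3 units without (change 3.84, SE 0.92, limma adjusted p = 0.0090). miR-669b-5p, described above, changed by 3.55 (SE 0.55, adjusted p = 0.00022). miR-669o-5p went from 7.51, 0.801 and 9.05 units to 81.6, 46.7 and 43.8 units (change 3.37, SE 0.70, adjusted p = 0.0022). None of these groups overlapped. With the filter by group miR-669f-5p, at 2.11, -1.20 and 4.06 units with DNase, changed by 3.90 (SE 0.85, adjusted p = 0.0029). All of these 5p members passed their filters through 96 h arrays alone, which this comparison uses. Their p-values are thus descriptions that support nothing. In mouse 7 the ratio of the signals without and with DNase was 12.1 for miR-669k-5p, 13.9 for miR-669b-5p and 10.9 for miR-669o-5p, and in mouse 9 it was 8.83, 3.59 and 4.84.

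The 4 members detected in fresh RNA were not called in this comparison, and mice differed in direction. For miR-467f the signal without DNase was 0.252 times that with DNase in mouse 7, 1.83 times in mouse 10 and 0.268 times in mouse 9. For miR-669p-3p these ratios were 0.242, 1.81 and 0.274. Without the array of mouse 10 at 96 h with DNase, a setting added after the data were seen, 7 members were called higher and 2 lower. Without mouse 7 only 1 member, miR-467c-5p, was called, although the change of the other 7 stayed between 1.70 and 4.06, with adjusted p from 0.052 to 0.33 by limma.

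The difference between the storage changes with and without DNase was tested as an interaction. It was called for 1 of the 13 members, miR-467c-5p, beside 0.951% of all kept miRNAs called higher. With the 75th percentile, quantile normalization and variance stabilization fitted on the kept miRNAs 7, 6 and 7 members were called, and with no scaling 0. miR-467c-5p was 3.78, -0.129 and 5.85 units at 96 h with DNase and 40.1, 27.6 and 27.1 units without, and its fresh signals were all below 0. The interaction was 2.98 glog2 (SE 0.63, limma adjusted p = 0.021) and positive in all 3 mice. miR-467c-5p passed the filter through 96 h arrays alone, which this test uses, so its p-value is a description that supports nothing. miR-669n came next by p, at 2.17 (SE 0.55, adjusted p = 0.056). For the 4 members detected in fresh RNA it was between -0.87 and -0.75, and none was called.

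Among the members with printed sequences, miR-669n alone was called in the comparison of DNase omission at 96 h. With its GU run it changed by 2.51 (SE 0.39, limma adjusted p = 0.00022). miR-467f, with its CA run, changed by -0.87, was not called, and its direction differed between mice. miR-467g was not kept. Of the other array miRNAs with a GU run of 8 bases 6 were kept. All 6 were called higher without DNase at 96 h, with changes from 2.18 to 3.72, beside 6.18% of all kept miRNAs called higher. Of the others with a CA run 2 were kept, none was called and their changes were -0.70 and -0.14. In the RNase comparison both of these and miR-467f were called higher, while 2 of the 6 other GU miRNAs were and miR-669n was not, beside 44.7% of all kept miRNAs called higher. The RNase call of miR-467f was lost under other settings, which are given with that comparison. These counts describe few miRNAs of similar sequence, which may share bound molecules. Whether the other miRNAs with a run passed the filter through 96 h arrays was not examined.

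Depletion of small RNAs was examined next, with untreated depleted RNA set against fresh DNase-treated RNA that kept them. Of the 13 kept members 9 were called higher and 0 lower, beside 5.39% of all kept miRNAs called higher. The members' median change was 2.21 glog2 and that of all kept miRNAs -0.17. With no filter on detection 19 of the 35 members were called higher, beside 5.32% of all miRNAs, and with normexp correction none of the 9 calls stayed. However, the 6 5p members among the 9 were detected on none of the 6 arrays, so that their calls rest on signals around background and give no fold. miR-669l-5p, for example, was 1.19, 2.06 and 0.211 units in depleted RNA against the negative fresh values given above. Also miR-669b-5p, at 0.367, 0.604 and -0.0314 units, and miR-669e-5p, at 1.55, 1.59 and 0.159 units, were called higher without being detected in depleted RNA.

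The other 3 called members were detected in depleted RNA. miR-467a-3p was 8.56, 8.93 and 3.46 units there and 0.821, 0.862 and 1.18 units in fresh RNA, at least 4.68-fold higher (limma adjusted p = 3.9e-06). It was detected on 5 arrays in all, among them the 3 of untreated depleted RNA, and passed the filter only with them. Its call was thus built into the choice and supports nothing. miR-669n was 8.62, 11.8 and 4.07 units, at least 4.62-fold higher (adjusted p = 9.7e-05), again a bound equal to its fitted change, and miR-669h-3p was 7.69, 5.34 and 2.45 units, detected on 2 of 3 arrays and at least 3.87-fold higher (adjusted p = 0.00023). Mouse 9 had the lowest value of these 3 miRNAs in depleted RNA.

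Several 3p members of the miR-467 family that were not kept had the same pattern at low signal. miR-467d-3p was 8.11, 7.93 and 2.31 units in untreated depleted RNA, detected on all 3 arrays, and at most 0.699 units in fresh DNase-treated RNA. miR-467c-3p was 5.92, 6.45 and 1.20 units, and miR-467e-3p was 4.40, 4.40 and 0.967 units. miR-467g, which shares the CA repeat with miR-467f, was 5.33, 4.36 and 2.18 units. With the filter set to detection on all arrays of a group, miR-467c-3p, miR-467d-3p and miR-467e-3p were tested, and all were called higher with depletion, with limma changes of 1.48, 2.43 and 1.53. They passed that filter through untreated depleted RNA alone, so that these calls were built into their choice and support nothing. miR-669f-5p was called under the same filter (change 3.23) without detection in either group. In these 3 and in miR-467g the values of mouse 9 were again the lowest.

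The 0 U arrays, which received the incubation and the second isolation but no RNase, showed whether these signals persisted. They were compared with untreated depleted RNA. Of the 13 kept members 3 were called lower and 0 higher, beside 1.58% of all kept miRNAs called lower. miR-467a-3p fell to 0.459, 0.610 and 0.644 units (change -2.17, SE 0.30, limma adjusted p = 0.00017), miR-669h-3p to -0.175, 0.349 and 0.290 units (change -2.32, SE 0.46, adjusted p = 0.0074) and miR-669n to 0.944, 2.16 and 0.498 units (change -1.89, SE 0.39, adjusted p = 0.010). None of the 3 was detected at 0 U, and each was at least 3.01-fold lower. For miR-467a-3p, which passed the filter only with the untreated arrays, the limit given for depletion applies here too. With no filter on detection 11 of the 35 members were called lower, beside 1.91% of all miRNAs. Without mouse 7 there were 0 calls. With the filter by group, to which the same limit applies, miR-467d-3p and miR-467e-3p were also called lower, and miR-467c-3p missed the threshold (change -1.42, adjusted p = 0.058). The remaining 10 kept members also had negative changes, of which 4 had an unadjusted p under 0.05.

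**Figure D4:**
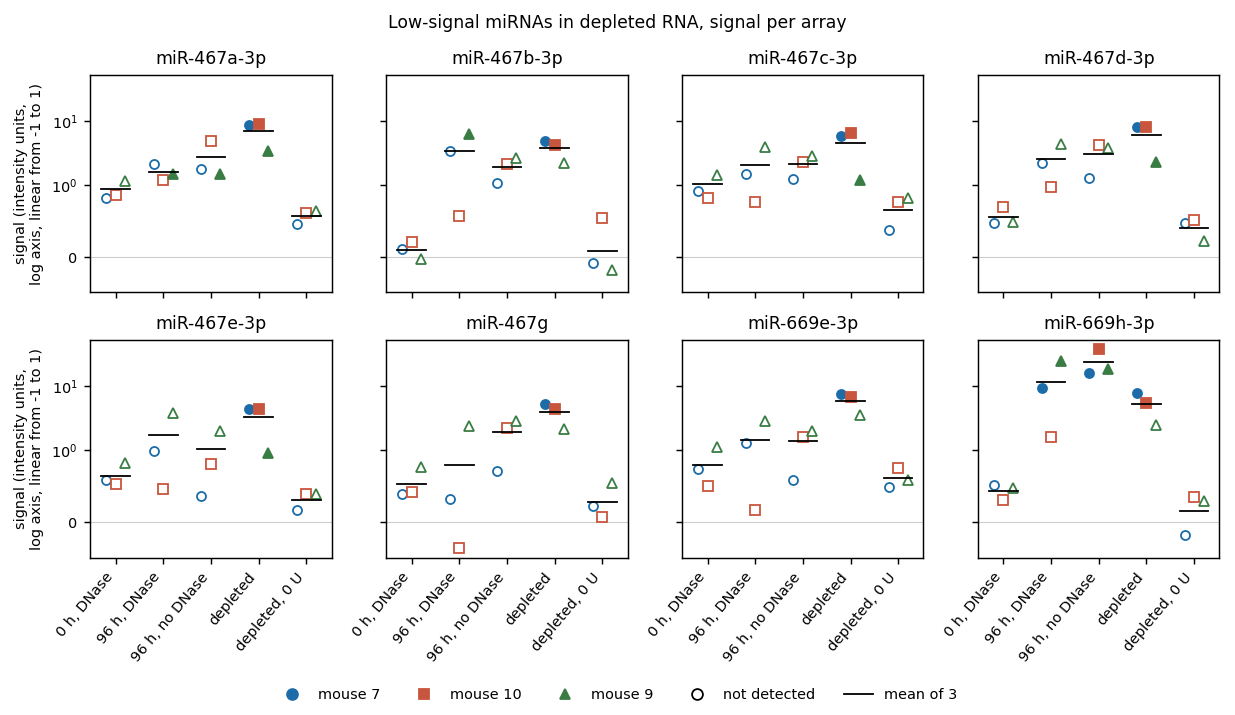
Signal per array (intensity units, log axis that is linear from -1 to 1) of 8 members with low signals in 5 of the groups, with 1 point per mouse, open where not detected, and a bar at the mean of 3. In each panel the mean in untreated depleted RNA is above the means in fresh and in 0 U depleted RNA, and no point at 0 U is filled.

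Finally, RNase digestion of depleted RNA was set against 0 U, as the mean of both doses, to ask which signals appear when long RNA is fragmented. Of the 13 kept members 3 were called higher and 0 lower, beside 44.7% of all kept miRNAs called higher, so the members' share was below that background. Their median change was -0.0039 glog2, and that of all kept miRNAs was 0.69. The 3 were miR-467f, miR-669p-3p and miR-669c-3p. miR-467f was 7.04, 15.3 and 5.88 units at 0 U, 19.0, 22.6 and 98.1 units at 0.026 U and 41.8, 101 and 37.9 units at 0.67 U (change 1.82, SE 0.39, limma adjusted p = 0.00058). miR-669p-3p was 5.02, 11.7 and 4.27 units at 0 U, 13.2, 16.0 and 65.1 units at 0.026 U and 28.9, 68.5 and 26.6 units at 0.67 U (change 1.70, SE 0.38, adjusted p = 0.00094). miR-669c-3p was 1.59, 3.69 and 1.48 units at 0 U, 3.59, 6.15 and 25.6 units at 0.026 U and 10.5, 25.8 and 10.4 units at 0.67 U (change 1.62, SE 0.41, adjusted p = 0.0023).

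In mice 7 and 10 the higher dose gave the higher signal of all 3 miRNAs, and in mouse 9, whose dose labels conflict, the array grouped at 0.026 U was the higher. Within each mouse both RNase arrays were above the 0 U array for these 3 miRNAs. Without the RNase arrays of mouse 9 the same 3 members were called higher and 1 was called lower. None of the 3 passed the threshold with the 75th percentile, quantile normalization, variance stabilization fitted on the kept miRNAs or normexp correction, although their changes stayed positive. The exact rank test did not call them either. With variance stabilization fitted on the kept miRNAs 0 members were called higher and 7 lower in this comparison, and with the 75th percentile 0 higher and 1 lower. The members called lower under these settings were miR-467a-3p or kept 5p members. None of them was detected on any 0 U or RNase array, so these calls rest on signals around background.

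No 5p member was detected on any of the 6 RNase arrays, where the signals of the 6 kept 5p members ranged from -1.12 to 0.760 units. miR-669n was 2.29, 2.11 and 5.60 units at 0.026 U and 1.92, 8.51 and 2.29 units at 0.67 U, detected on 3 of the 6 arrays, and was not called (change 0.73, SE 0.34, limma adjusted p = 0.084). miR-669f-3p was 1.86, 1.75 and 9.65 units at 0.026 U and 2.54, 10.0 and 2.65 units at 0.67 U, against 0.560, 2.10 and 0.683 units at 0 U, and was not called (change 0.93, SE 0.43, adjusted p = 0.089).

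**Figure D5:**
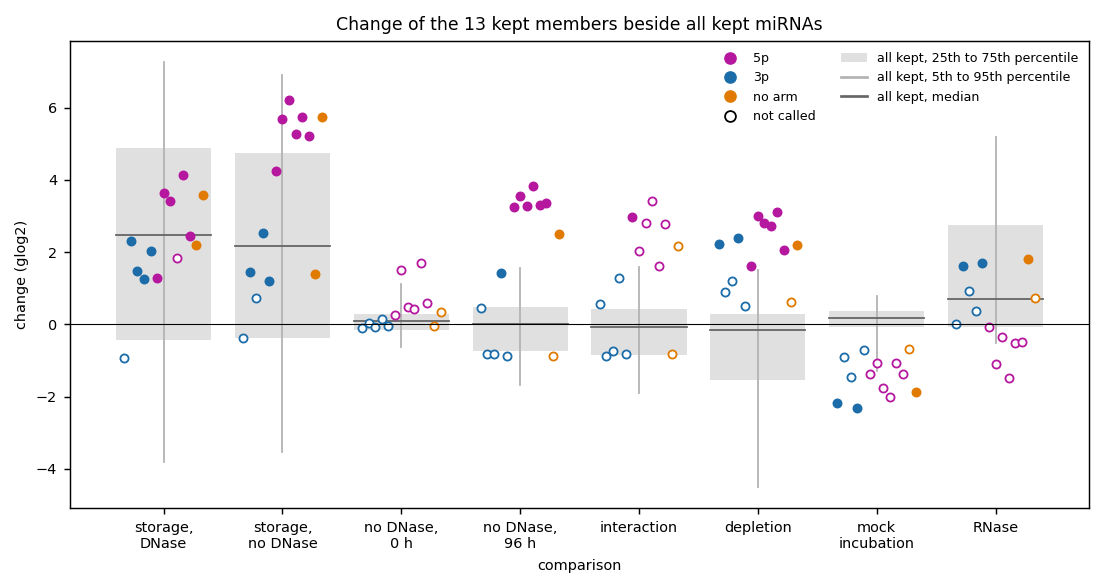
Change (glog2) of the 13 kept members in the 8 comparisons, coloured by arm and filled where called, beside all 631 kept miRNAs (grey box from the 25th to the 75th percentile, grey line from the 5th to the 95th percentile, dark line for the median). The 6 kept 5p members, which passed the filter through 96 h arrays alone, stand together near 3 to 4 for DNase omission at 96 h, where the background median is 0.02, while most 3p members lie below 0, and under other scalings the storage changes of several 3p members turn negative.

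The miR-466 and miR-297 families, which share the Sfmbt2 cluster, were counted in the same comparisons. Of their 26 array miRNAs 12 were kept. With storage 12 of 12 were called higher both with and without DNase, with median changes of 2.47 and 3.93 glog2. With DNase omission at 96 h 6 of 12 were called higher (median change 1.19), with depletion 7 of 12 (median 1.57) and with RNase 5 of 12 (median 0.95). The corresponding counts for the miR-467 and miR-669 members were 11, 11, 8, 9 and 3 of 13, and the difference between the families was not tested. Of all kept miRNAs 60.4%, 60.5%, 6.18%, 5.39% and 44.7% were called higher in these comparisons, in the same order.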

How the data were processed

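Liver RNA of 3 mice was hybridized to 24 one-colour Agilent arrays. The deposited scanner files hold background-subtracted fluorescence intensity per probe and miRNA (Feature Extraction 10.10.1.1, per the file headers). The deposited table holds log2 values that the authors made by variance stabilization (vsn). Here the signal was the total gene signal where detected and otherwise the sum of the probe signals. vsn was rewritten in Python 3.11.15 (7 rounds, 90% kept, 5 slices) and differed from the deposited values by 0.0956 (SD). Groups were compared with limma 3.58.1 (R 4.3.3) in 1 fit of 8 group means with a variance trend. Benjamini-Hochberg adjustment was over the 631 kept miRNAs within each of the 8 comparisons, not across comparisons. Scripts were tested on simulated data. The depth of an array is not defined, and 3 arrays per group limit the precision. The replicate number in the labels is the mouse. Deviations from the group means correlated at 0.0914 on average between arrays of 1 mouse and at -0.0449 between mice. The limma p-values rest on the spread between arrays within groups, pooled over the 8 groups and drawn toward a trend over all kept miRNAs. The main fit did not pair the arrays of a mouse. Each mouse had its own slide and scan, so this spread also holds differences between slides and scans.

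Named were the 3 largest increases and decreases per comparison among called members with 1 direction in all mice, all called members where at most 5 were called, and members detected in fresh RNA. The members, lists and rules were chosen with earlier results of these data known. Other normalizations, filters, a mouse block, an exact rank test and the omission of each mouse were tried as alternatives. The methods' rank test cannot pass 0.05 with 3 arrays against 3, where its smallest p is 0.1. The normexp alternative used the median spot intensity. Sequences and gene neighbours are from RefSeq GRCm38.p6, and the array design names another build, so no array coordinate is given.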

Additional observations from a re-analysis of the deposited data

Results flagged for a closer look

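miR-467c-5p was the only member called, as normalized here, in the test of the difference between the storage changes with and without DNase digestion. Its difference was 2.98 glog2 (SE 0.63, limma adjusted p = 0.021). It was positive in 3 of 3 mice, but was not called after leaving out any 1 mouse, when it was 2.66 to 3.26. Without the array of mouse 10 at 96 h with DNase only, a setting added after the data were seen, it was 2.45 and was called (adjusted p = 0.010). With the 75th percentile, quantile normalization and variance stabilization fitted on the kept miRNAs 6, 5 and 6 further members were called beside it, and with no scaling or normexp correction it was not called itself. miR-467c-5p was detected on 5 arrays, all at 96 h, and passed the filter through these alone. The test uses the same arrays, so its p-value is a description that supports nothing.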

How the results depend on the processing

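The counts of called members varied with the scaling, the background correction, the filter and the test. With normexp background correction 0 members were called for storage with DNase, 1 for storage without DNase, 1 for DNase omission at 96 h, 1 for depletion, 0 for the mock incubation and 0 for RNase. With the exact rank test 0 were called in all of these. Apart from RNase they set 3 arrays against 3, which cannot pass. RNase set 6 arrays against 3, so that its 3 calls were lost without this limit. With quantile normalization 4 were called for storage with DNase, 6 for the interaction, 5 for the mock incubation and 0 for RNase. With variance stabilization fitted on the kept miRNAs 3 were called for storage with DNase, 7 for the interaction and 7 for RNase. These RNase calls were all lower, for members not detected on any array of that comparison. With the 75th percentile as the scale 7 were called for the interaction, 7 for the mock incubation and 1 for RNase, and with no scaling 0 for the interaction. Without a filter on detection 23, 18, 19 and 11 members were called for storage with DNase, storage without DNase, depletion and mock incubation, as 35 were then tested. With the filter by group 2 were called for the interaction and 5 for the mock incubation. Leaving out each mouse in turn gave 7 to 13 calls for storage with DNase, 11 each time for storage without DNase, 1 to 9 for DNase omission at 96 h, 0 to 1 for the interaction, 6 to 8 for depletion, 0 to 2 for the mock incubation and 3 to 4 for RNase. Without only the array of mouse 10 at 96 h with DNase the interaction was called for 2. DNase omission in fresh RNA gave 0 calls under all settings.

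The replicate block, which paired the arrays of a mouse, left 7 of 8 calls for DNase omission at 96 h and changed no other call of a member. Grouping mouse 9 by titles gave 4 calls for RNase, and omitting its RNase arrays gave 4. For storage without DNase, the changes of miR-467f, miR-669c-3p, miR-669f-3p and miR-669p-3p became -0.12, -0.10, -0.50 and -0.23 with quantile normalization and -0.10, -0.15, -1.01 and -0.29 with variance stabilization fitted on the kept miRNAs. Under normexp they became -0.0086, -0.019, -0.039 and -0.060. With variance stabilization fitted on the kept miRNAs miR-669f-3p also became -0.46 for storage with DNase and -0.19 for RNase. The cause was not tested. Of 355 changes of named members recomputed under alternatives, 279 stayed on the same side of the threshold in the same direction. A fixed signal level in place of the detection flag raised the mean number of members detected in every group, for example from 3.00 to 9.00 in fresh DNase-treated RNA and from 12.0 to 20.7 in untreated depleted RNA. Signals of a few units are close to background and limit the 3p members in depleted RNA most.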
